A study of Mus musculus with 8 samples.

Results

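Genes that regulate epithelial character, 10 in all, were followed in the early mouse pancreas with and without Sox9: the Ets factors Elf3, Elf5, Ehf and Spdef, the Grainyhead-like factors Grhl1 and Grhl2, the Krüppel-like factors Klf4 and Klf5, and the splicing regulators Esrp1 and Esrp2. They were taken by name from the 27828 gene names on the array, with Esrp1 and Esrp2 found under their older names Rbm35a and Rbm35b, and all 10 of 10 were present, on 18 probes. Tissue was dorsal pancreatic epithelium, dissected by hand from mouse embryos at e12.5. Mutant embryos were Sox9 fl/fl; Pdx1-Cre, in which a Cre recombinase driven by the Pdx1 promoter deletes the floxed Sox9 alleles in the pancreatic bud. Their wild-type littermates carried the same Sox9 fl/fl alleles without Cre, so the presence of Cre and the loss of Sox9 cannot be told apart. Both genotypes came from crosses of a Sox9-flox line on a mixed FVB/N and C57Bl/6J background with a Pdx1-Cre line on C57Bl/6J. Each of the 4 wild-type and 4 mutant arrays was hybridised with RNA pooled from 3 embryos. Since the design text counts fewer biological replicates than there are arrays, the p-values measure the spread between these arrays, which may be partly technical.

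Ets factors share a winged helix-turn-helix domain that reads GGAA-type sites, and the 4 named here form the group of Ets genes known mainly from epithelia. Grhl factors bind promoters and enhancers of adhesion and tight junction genes, among them Cdh1 and Cldn4, and help hold epithelial sheets together. Klf factors bind GC-rich sites through C2H2 zinc fingers, and Klf4 and Klf5 are known from renewing epithelia but are also expressed outside them. Esrp1 and Esrp2 are RNA-binding proteins that direct epithelial splice forms, of which the IIIb form of the receptor gene Fgfr2 is the textbook case. The early pancreatic epithelium consists largely of progenitors that give rise to acinar, duct and endocrine cells, and Sox9 is a transcription factor of those progenitors.

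Signals are given as log2 values relative to the 75th percentile of each array, so 0 marks a probe at that percentile and -1 marks a signal at 0.5 of it. Each difference is mutant minus wild-type on this log2 scale, tested with limma over 18506 genes with Benjamini-Hochberg adjustment at a threshold of 0.05. Of the 10 regulators, 6 fell in the mutants and none rose: Elf3, Elf5, Spdef, Grhl2, Esrp1 and Esrp2. The other four, Ehf, Grhl1, Klf4 and Klf5, did not pass the test. Over all genes 3.81% were called lower and 1.56% higher. The median difference of the 10 was -1.74, against 0.02 over all genes tested. In 6 regulators the 4 mutant arrays all lay below the 4 wild-type arrays and in 2, Klf4 and Klf5, all above, against 7.99% and 7.22% of all genes.

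**Figure D1:**
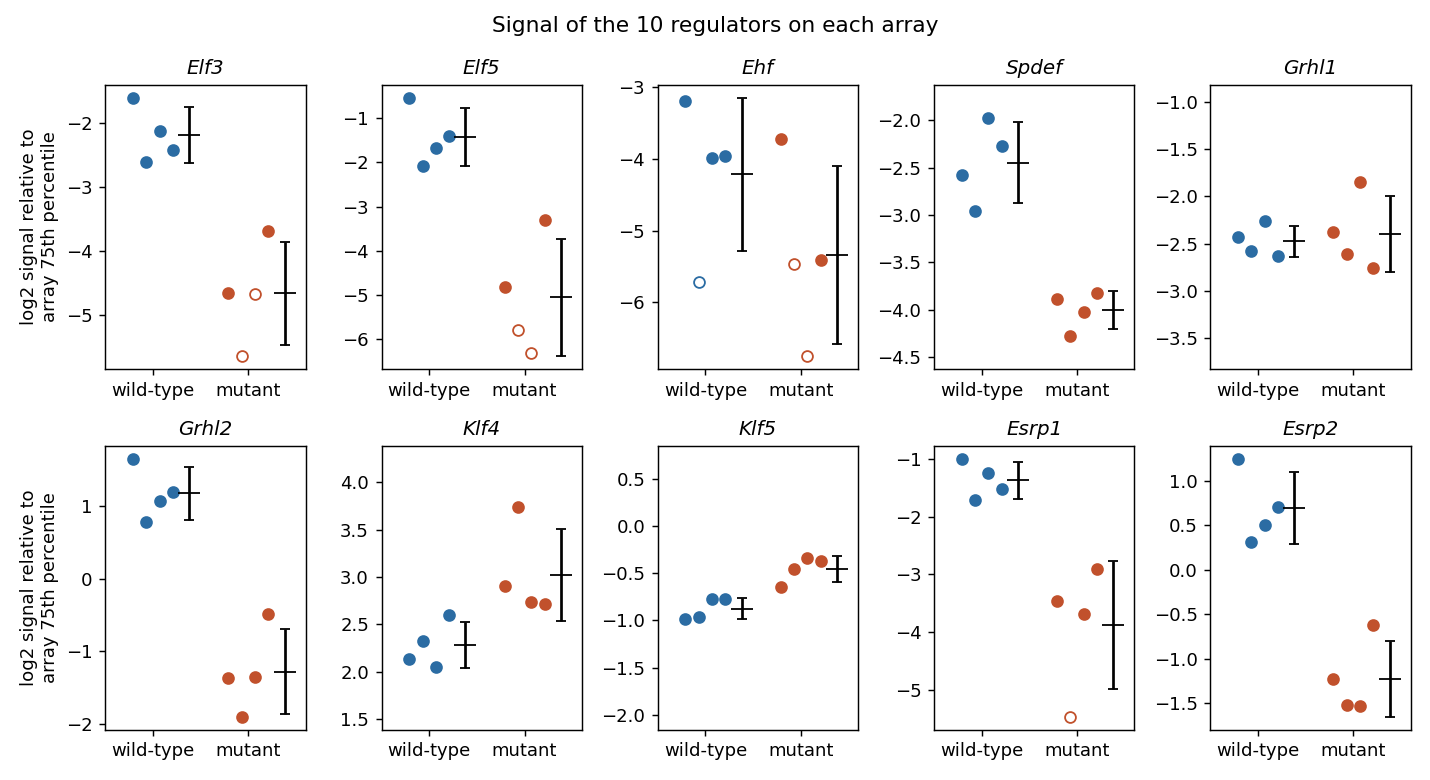
Log2 signal of the 10 regulators on each array, relative to the array's 75th percentile, with wild-type arrays in blue and mutant arrays in red, ordered by replicate number. Open circles mark spots not well above background, black bars give the mean and SD of 4 arrays, and the vertical range differs between panels. The groups are apart in 8 panels and overlap for Ehf and Grhl1.

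The dissected tissue was checked against markers. Between 59.4% and 77.7% of spots were well above background on each array, and the first principal component, with 34.2% of the variance, separated the genotypes. Sox9 differed by -2.70 (limma, adjusted p = 0.0253, SE 0.517), a call that held in 12 of 19 alternatives and in 4 of 8 fits with 1 array left out (highest adjusted p 0.0732). Its other probes differed by -3.27 (adjusted p = 0.0231 among single kept probes, limma) and by -1.44 (0.0748, not past the threshold). Whether the probes lie in the deleted part of the gene was not determined here. Of 19 epithelium markers 15 fell, and their summed signal ranged from 119 to 162 times the array's 75th percentile in wild-type arrays and from 46.5 to 69.3 times in mutant arrays. All 10 mesenchyme markers lay above 0 and 4 of them rose, with a summed signal of 293 to 364 times the 75th percentile in wild-type arrays and 409 to 548 times in mutant arrays. All 10 mesenchyme markers were well above background on all 8 arrays, so the dissected epithelium of both genotypes also held mesenchyme transcripts. Among markers of other cell types, 2 of 7 for endothelium, 3 of 6 for macrophages and 2 of 6 for mesothelium rose. For erythroid cells 0 of 6 passed the test, though 5 of 6 lay above 0, with a median difference of 0.52. Of those tested, 2 of 4 for neural crest and 2 of 6 for stomach and intestine fell. The called rises were not stable: with 1 array left out, 1 to 4 mesenchyme, 0 to 1 endothelium, 0 to 3 macrophage and 0 to 2 mesothelium markers were called, and with the replicate block 0 of each. For stomach and intestine 0 to 2 markers were called with 1 array left out, while 14 to 16 epithelium markers were. With the replicate block 0 stomach and intestine and 12 epithelium markers were called. In these bulk samples fewer epithelial cells and less RNA per epithelial cell cannot be told apart, and the part of the markers' shift in the regulators' values was not tested. The mean log2 signal of 3 Y-linked genes was at or below -5.19 in 3 wild-type pools and at or above -1.87 in the remaining pools of both genotypes, so embryo sex runs in part with genotype.

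Among the Ets factors, 3 of 4 fell. Elf3, known from simple epithelia such as gut and lung, gave wild-type values of -1.61, -2.61, -2.13 and -2.42, in the order of replicates 1 to 4, and mutant values of -4.65, -5.65, -4.68 and -3.69. The highest mutant array lay more than 1 log2 unit below the lowest wild-type array. Elf3 fell by 2.48 (SE 0.397, 95% interval -3.39 to -1.56, adjusted p = 0.0134, limma), or 5.56-fold. Its spot was well above background on 4 of 4 wild-type and 2 of 4 mutant arrays, so the mutant level is close to what the array can measure. Elf3 passed under all 18 alternatives that hold a value for it, with adjusted p between 0.0049 and 0.0444 (limma). Its size was smaller under the other background treatments, at -1.08 with normexp and -1.19 in the authors' deposited table.

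Elf5, known for mammary alveolar cells and for trophoblast, ranked 12 from the lowest of 18506 genes on the processed signal, with 2 of its 4 mutant spots not well above background. Wild-type arrays read -0.54, -2.07, -1.68 and -1.41, and mutant arrays -4.81, -5.79, -6.32 and -3.30. Mutant replicate 4 stood above the other mutants but still below every wild-type array. The difference was -3.63 (SE 0.636, 95% interval -5.09 to -2.17, adjusted p = 0.0186, limma), or 12.4-fold. Leaving out 1 array kept the call in 4 of 8 cases, and the adjusted p reached 0.0539 without wild-type replicate 1, 0.0578 without wild-type replicate 4, 0.0526 without mutant replicate 1 and 0.0596 without mutant replicate 2 (limma). The size depends on background treatment: it was -1.59 after normexp correction and -1.70 in the authors' deposited table, both past the threshold and both smaller falls than that of Grhl2 (-2.15 and -2.19). Normexp called 3.31% of all genes lower and 1.85% higher, and limma on the authors' deposited table called 3.49% lower and 2.5% higher.

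Spdef, a factor of goblet and other secretory cells, stayed above background on all 8 arrays. It read -2.58, -2.96, -1.97 and -2.27 in wild-type and -3.89, -4.28, -4.03 and -3.83 in mutant arrays. The mutant values sat within 0.5 of each other, well under the lowest wild-type array. The difference was -1.56 (SE 0.218, 95% interval -2.06 to -1.06, adjusted p = 0.0096, limma), a 2.95-fold fall. Its size was also smaller under the other background treatments, at -0.68 with normexp and -0.79 in the authors' deposited table, and the call was lost without the 3 arrays of slide 2 (adjusted p = 0.0589, limma; range over alternatives 0.0037 to 0.0589).

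Ehf, also an epithelium-specific Ets factor, gave a probe-dependent answer. Its brightest probe read -3.19, -5.72, -3.99 and -3.97 in wild-type arrays and -3.72, -5.46, -6.75 and -5.41 in mutants, so the groups overlapped. The difference was -1.12 (SE 0.705, 95% interval -2.74 to 0.50, adjusted p = 0.486, limma). A second probe read -3.82, -4.32, -3.81 and -4.06 in wild-type arrays and -5.69, -7.30, -6.46 and -5.62 in mutants, with no overlap. That probe was well above background on 4 of 4 wild-type and 0 of 4 mutant arrays. On the processed signal this makes the wild-type signal at least 2.45-fold higher, with an adjusted p of 0.0158 among 27389 single kept probes (limma). In that fit 2.88% of probes were called lower and 0.873% higher. The remaining probe was well above background on 3 wild-type arrays and no mutant array and did not reach the 4 arrays needed to be tested. With normexp the second probe's difference was -0.43 and in the authors' deposited table -0.29, neither past the threshold (adjusted p = 0.415 and 0.138 over single probes, limma). Both are smaller than the 2.45-fold bound, which therefore holds for the processed signal only. The tested pair of probes is printed because they differ in outcome. Both are assigned to the same Ehf transcript on chromosome 2 of the mm8 assembly, minus strand. The brightest covers 60 bases of transcript drawn from chr2:103080589-103084405 and the second 60 bases from chr2:103074767-103074926, so each crosses a splice junction.
Ehf A_52_P272429 (groups overlap): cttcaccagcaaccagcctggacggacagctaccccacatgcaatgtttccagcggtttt
Ehf A_52_P205877 (groups apart): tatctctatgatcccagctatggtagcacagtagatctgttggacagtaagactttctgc

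Of 22 other Ets genes listed, 18 were tested, 0 passed the test in either direction, and their median difference was 0.07, with values between -0.68 and 0.51. Etv2, Elk1, Spi1 and Spib had no probe above background on enough arrays to be tested.

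Of the Grainyhead-like factors, Grhl2 fell and Grhl1 did not pass the test. Grhl2, needed for neural tube closure and for epithelial junctions, read 1.66, 0.78, 1.07 and 1.20 in wild-type arrays and -1.37, -1.90, -1.35 and -0.49 in mutants. Every mutant array lay below 0 and every wild-type array above it. Grhl2 fell by 2.46 (SE 0.306, 95% interval -3.16 to -1.75, adjusted p = 0.0081, limma), or 5.49-fold, with all 8 spots well above background. It passed under all 19 alternatives (adjusted p 0.0011 to 0.0352, limma), with differences between -2.84 and -2.15. Its profile over the 8 arrays was most like those of Tnk1, Cldn6 and Nr5a2, at root mean square differences of 0.0819, 0.106 and 0.116 log2 units after each gene was centred on its own mean. Cldn6 is a claudin of embryonic epithelia and Nr5a2 a nuclear receptor of pancreas and liver.

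The gene has further probes on chromosome 15 of mm8, plus strand, and they were dim. The probe at chr15:37254260-37254319 read a mean of -3.74 in wild-type and -5.67 in mutant arrays, with a difference of -1.93 that did not pass the test (adjusted p = 0.133 among single kept probes, limma). The probe at chr15:37305350-37305409 was well above background on 1 wild-type array and no mutant array and was not tested. Both are printed because they show which parts of the transcript gave dim readings: each holds an open reading frame over its full length and lies upstream of the bright probe at chr15:37307958-37308017.
Grhl2 A_51_P408821 (dim): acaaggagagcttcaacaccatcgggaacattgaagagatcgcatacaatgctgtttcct
Grhl2 A_52_P373982 (dim): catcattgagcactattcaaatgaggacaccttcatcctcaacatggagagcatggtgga

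Grhl1, known from the epidermis and its desmosomes, read -2.43, -2.58, -2.26 and -2.63 in wild-type arrays and -2.38, -2.61, -1.85 and -2.76 in mutants. The groups overlapped throughout. The difference was 0.07 (SE 0.202, 95% interval -0.39 to 0.54, adjusted p = 0.924, limma), so a fall of the size measured for Grhl2 lies outside its interval. A second Grhl1 probe differed by 0.04. The sign of this small value was negative with normexp, at -0.02, and without mutant replicate 3, at -0.11. Of the CP2 relatives, Tfcp2 differed by 0.04, Tfcp2l1 by -0.28 and Ubp1 by 0.14, and 0 of these 3 passed the test. Grhl3 is not reported because no probe was matched to it.

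Genes that depend on Grhl2 in epithelia of the mouse and in cell lines were listed for comparison, and 7 of 7 fell, with a median difference of -2.40. Cdh1, the epithelial cadherin, fell by 2.51 (SE 0.409, adjusted p = 0.014, limma). The tight junction claudins Cldn3 and Cldn4 fell by 2.75 and dropped by 2.13, the small GTPase gene Rab25 fell by 2.41 and the protease inhibitor gene Spint1 fell by 2.40. The adhesion gene Epcam fell by 2.12 and the zinc finger factor gene Ovol2 by 1.55. Of the 7, only Ovol2 is not also in the list of epithelium markers, 15 of 19 of which fell.

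**Figure D2:**
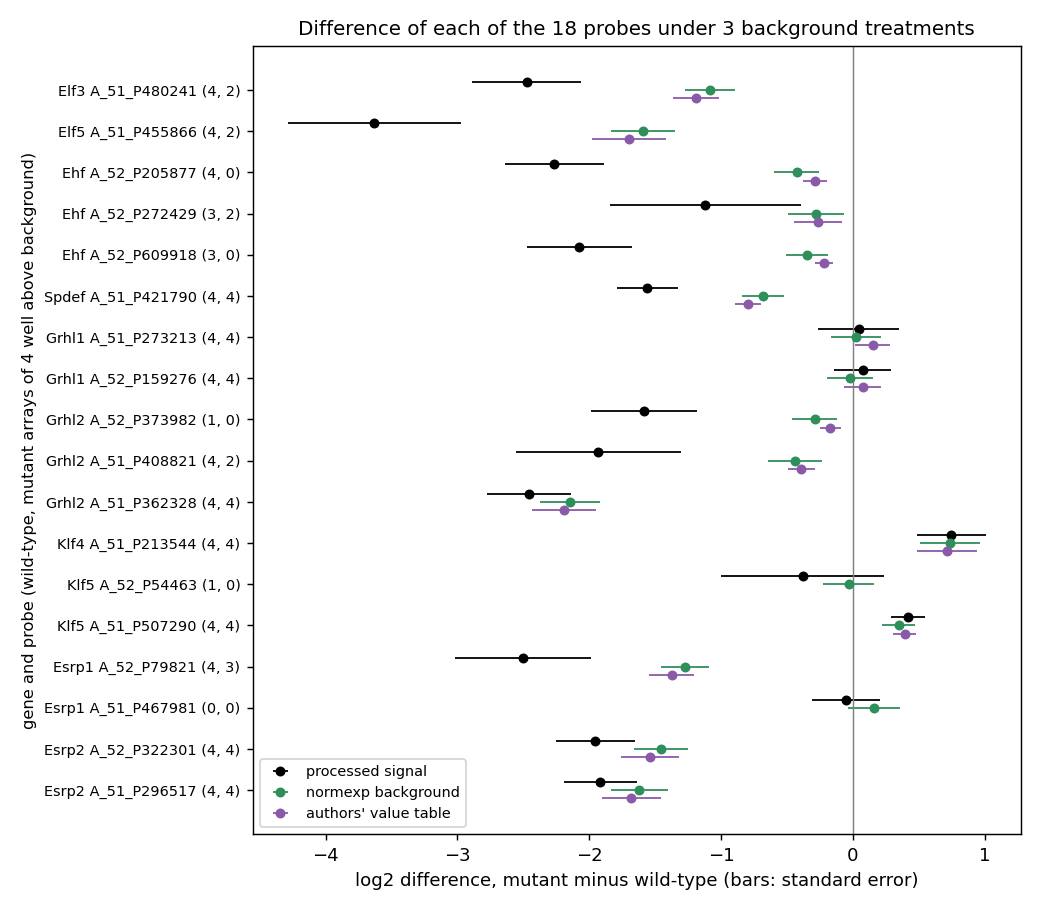
Mutant minus wild-type log2 difference of each of the 18 probes, with standard errors from limma, under 3 treatments of background: the processed signal (black), normexp (green) and the authors' deposited table (purple). Numbers in brackets count wild-type and mutant arrays well above background. Dim probes, such as those of Elf5 and Ehf, move toward 0 under the other treatments, while Grhl2's bright probe stays between -2.46 and -2.15; 2 probes have no value in the authors' table.

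Klf4 and Klf5 were the only regulators whose mutant arrays all lay above the wild-type arrays, and neither passed the test over all genes. Klf4, known from goblet cells, skin and vessel walls and as a reprogramming factor, read 2.13, 2.32, 2.05 and 2.60 in wild-type arrays and 2.90, 3.74, 2.74 and 2.71 in mutants. Mutant replicate 2 was far above the other mutants, and mutant replicate 4 lay only just above wild-type replicate 4. The difference was 0.75 (SE 0.247, 95% interval 0.18 to 1.31, adjusted p = 0.132, limma), and 0 of 19 alternatives called it. Klf5, a factor of intestinal crypts, read -0.98, -0.96, -0.78 and -0.77 in wild-type arrays and -0.65, -0.46, -0.34 and -0.37 in mutants. Its groups were close together but apart. The difference was 0.42 (SE 0.114, 95% interval 0.16 to 0.68, adjusted p = 0.0783, limma), past the threshold in 1 of 19 alternatives, the authors' deposited table (adjusted p = 0.0367, limma; range over alternatives 0.0367 to 0.272). The 10 mesenchyme markers were higher in mutants as well, with a median difference of 0.63, and their part in the Klf values was not tested.

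The Klf5 probe is printed because it names the part of the transcript that was read. It draws 60 bases from chr14:98186571-98196303 on the plus strand of mm8, across an intron. The capitals mark the bases that encode the linker between neighbouring zinc fingers, a stretch common to C2H2 zinc finger proteins.
Klf5 A_51_P507290: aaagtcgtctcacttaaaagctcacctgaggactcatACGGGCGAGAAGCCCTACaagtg
The second Klf5 probe was well above background on 1 wild-type and no mutant array and was not tested. Among 15 other Klf genes 0 passed the test, with a median difference of 0.03 and values between -0.44 and 0.98.

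Both splicing regulators fell. Esrp1 read -0.998, -1.72, -1.26 and -1.52 in wild-type arrays and -3.46, -5.46, -3.69 and -2.90 in mutants. The groups were apart, and mutant replicate 2 was lowest by a wide margin and not well above background. Esrp1 fell by 2.50 (SE 0.497, 95% interval -3.64 to -1.36, adjusted p = 0.0284, limma), or 5.67-fold. This call was the least stable of the 6: leaving out 1 array kept it in 2 of 8 cases, those without mutant replicate 2 or mutant replicate 4. In the other six cases the adjusted p lay between 0.0518 and 0.0778 (limma). It lost the call as well with no filter on dim probes (adjusted p = 0.068, limma) and without the arrays of slide 2 (0.0697), while normexp gave -1.27 and the authors' deposited table -1.37, both past the threshold. A second Esrp1 probe was well above background on no array.

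Esrp2 was well above background on all 8 arrays. It read 1.25, 0.31, 0.50 and 0.70 in wild-type arrays and -1.23, -1.52, -1.53 and -0.62 in mutants. As with Grhl2, every wild-type array was above 0 and every mutant array below it. Esrp2 fell by 1.92 (SE 0.265, 95% interval -2.52 to -1.31, adjusted p = 0.0096, limma), or 3.78-fold, and passed under all 19 alternatives (adjusted p 0.0023 to 0.0374, limma). Its second probe gave -1.95 (adjusted p = 0.0123 among single kept probes, limma). The nearest profiles were those of Cdkn1a, Ano9 and Fam241b, at 0.110, 0.110 and 0.114 log2 units.

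Of 10 other splicing regulators tested, Rbm47, an RNA-binding protein gene of endoderm and epithelia, fell by 2.62 (SE 0.314, adjusted p = 0.0081, limma) and Celf2 rose by 0.67 (SE 0.156, adjusted p = 0.048, limma). Rbm47 passed in every alternative run, with a highest adjusted p of 0.0352, whereas Celf2 lost its call whichever array was left out (highest adjusted p over the alternatives 0.266, limma). The remaining 8, which include Rbfox2, Mbnl1 and Ptbp1, did not pass the test. Of 8 genes whose exons Esrp proteins are known to control, Fgfr2 fell by 1.40 (SE 0.195, adjusted p = 0.0096, limma). The other seven did not pass: Cd44 differed by 0.28, Ctnnd1 by -0.11, Enah by -0.27, Arhgef11 by 0.09, Scrib by -0.12, Slk by 0.12 and Magi1 by -0.06. These are signals per gene, and exon use was not measured.

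**Figure D3:**
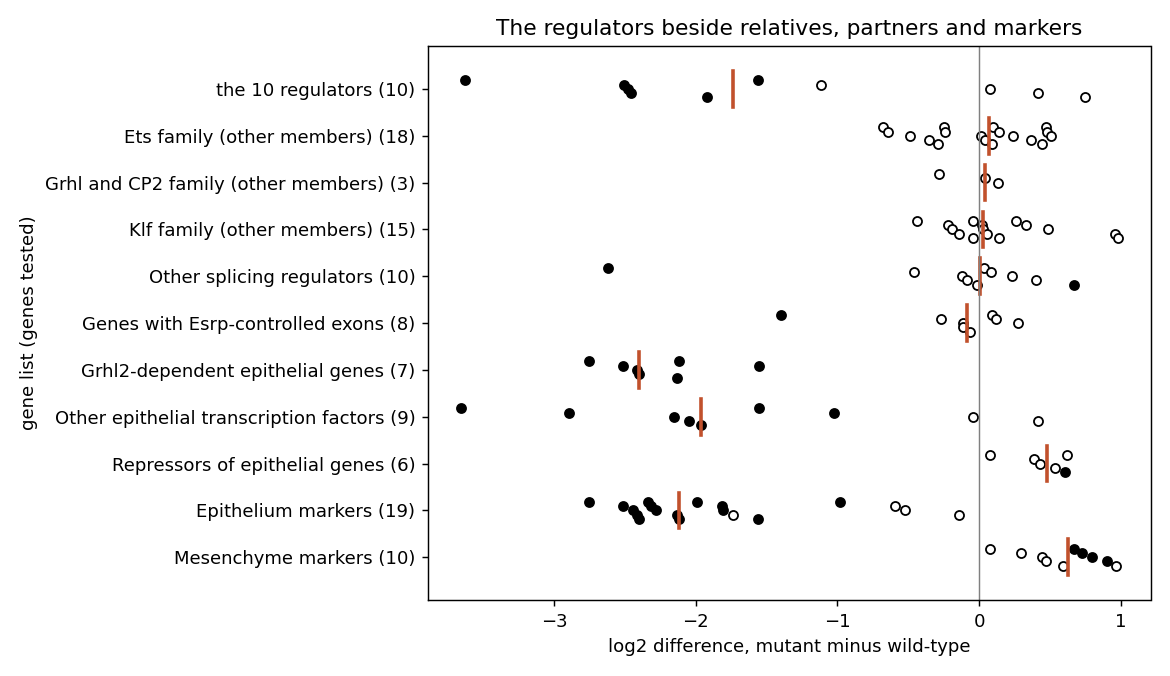
Mutant minus wild-type log2 difference of each tested gene in the 10 regulators and in 10 comparison lists, with filled circles past the limma threshold and red bars at list medians. The other Ets, Grhl and Klf genes centre near 0, with medians of 0.07, 0.04 and 0.03, whereas Grhl2-dependent genes and epithelium markers centre at -2.40 and -2.12.

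Transcription factors of epithelia outside these families were listed as well. Of 12 listed, 9 were tested and 7 fell, with a median of -1.97. Among those with the smallest adjusted p, Foxa3, a forkhead factor of endoderm, fell by 2.05, and Nkx6-1, a factor of pancreatic progenitors and beta cells, fell by 3.66. Of the repressors of epithelial genes, all 6 lay above 0 and 1, Zeb1, rose by 0.60 (SE 0.106, adjusted p = 0.0186, limma). The Zeb1 call was lost without wild-type replicate 3 or 4 or mutant replicate 1 or 2, without the arrays of slide 2, under the replicate block and when dim probes were all kept (highest adjusted p 0.172, limma). Zeb2 differed by 0.53, Snai1 by 0.62, Snai2 by 0.43, Twist1 by 0.07 and Twist2 by 0.39 without passing. Several of these repressors are known from mesenchyme, whose markers were also higher in the mutants, and the part of the mesenchyme in their values was not tested.

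The 6 regulators that fell ranked the arrays alike. Mutant replicate 4 was the highest mutant in 6 of 6, and the lowest was mutant replicate 2 in 4 and mutant replicate 3 in 2. On the wild-type side, replicate 2 was lowest in 6 of 6 and replicate 1 highest in 5. Mutant replicate 4 also held the highest Sox9 signal of the mutants, 0.77 against -0.61, -1.79 and -0.01 in replicates 1 to 3. In wild-type arrays Sox9 read 3.01, 2.13, 1.82 and 2.19, so replicate 3 and not replicate 2 was lowest. The Sox9 probe that differed by -3.27 read 2.22, 2.35, 2.35 and 2.54 there, lowest in replicate 1. The Sox9 probe that differed by -1.44 read -1.27, -2.53, -1.88 and -2.14 in wild-type arrays. It was highest in replicate 1 and lowest in replicate 2, like most of the regulators that fell. The Sox9 probes thus did not share a single wild-type order, and whether the regulators' order is that of Sox9 was not settled. The mean of 6 epithelial markers (Cdh1, Epcam, Krt8, Krt18, Cldn6, Cldn7) followed the regulators' order at the ends. It read 3.71, 3.26, 3.41 and 3.48 in wild-type arrays and 1.55, 1.13, 1.27 and 2.34 in mutants. It fell by 1.89 (exact permutation test over 70 assignments, two-sided p = 0.0286, the smallest this design allows).

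**Figure D4:**
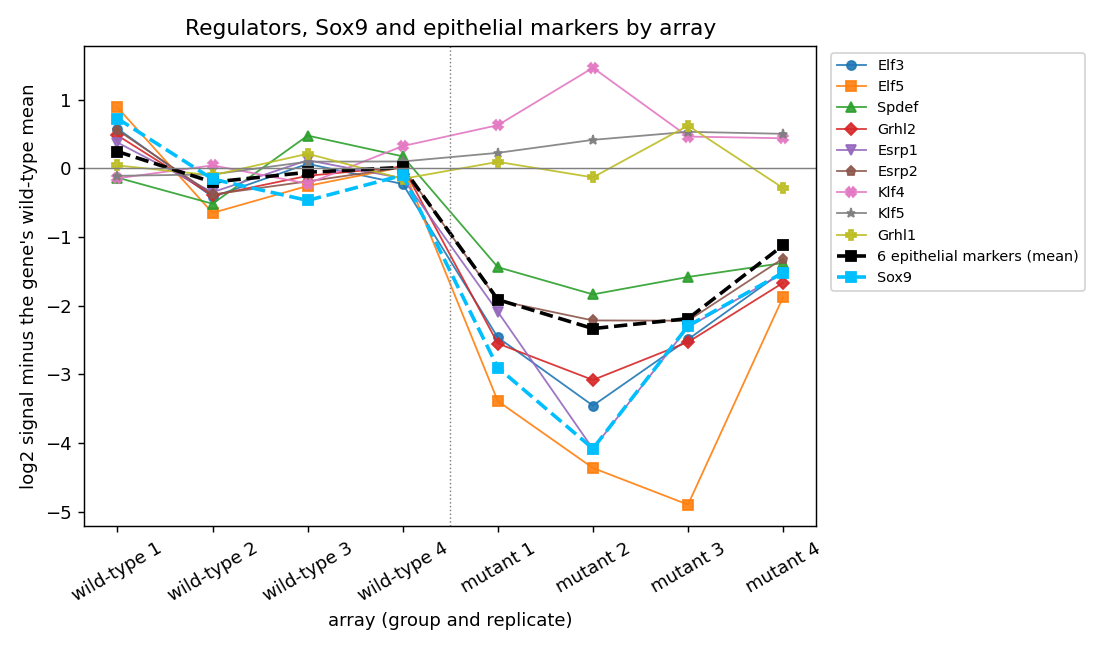
Log2 signal on each array minus the gene's own wild-type mean, for the 6 regulators that fell, for Klf4, Klf5 and Grhl1, for Sox9 and for the mean of 6 epithelial markers (dashed). Lines only join the values of a gene. Mutant replicate 4 lies nearest to wild-type for Sox9, the epithelial markers and the regulators that fell.

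Each regulator was then set against that epithelial mean on the same array, which asks whether it moved more or less than general epithelial transcripts. On this relative scale Esrp2 differed by -0.03 between genotypes, with values of -2.46, -2.95, -2.90 and -2.77 in wild-type and -2.78, -2.65, -2.80 and -2.96 in mutant arrays. Its groups overlapped fully (exact permutation p = 0.771). Spdef differed by 0.33, Ehf by 0.77 and Esrp1 by -0.62, also with overlapping groups. These values depend on background treatment: with normexp Spdef differed by 1.12 and Ehf by 1.52, both with groups apart, and Esrp1 by 0.53, and in the authors' deposited table the values were 1.03, 1.56 and 0.45, with the same overlaps. For 3 regulators every mutant array lay below every wild-type array on this scale: Elf5 by -1.74, Elf3 by -0.59 and Grhl2 by -0.57. Such a pattern was seen in 0.341% of all genes, against 87% whose mutant arrays all lay higher, as Klf4 (2.64), Klf5 (2.31) and Grhl1 (1.96) did. Those 3 are therefore like most genes on this scale. The reference differed by -1.89 while the median over all genes was 0.02, so genes that did not move lie higher here. The 19 epithelium markers had a median difference of -2.12, a larger fall than that of the reference. A lower relative value is thus not particular to Elf5, Elf3 and Grhl2, and its share among epithelial genes was not counted.

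The 3 lower values differ in how far they hold. For Elf3 the sign turned positive with normexp and in the authors' deposited table, and for Elf5 it turned positive in both as well. Over the 17 settings run, Elf5 ranged from -2.43 to 0.21 with groups apart in 15, and Elf3 ranged from -0.68 to 0.72 with groups apart in 12. Grhl2, whose probe is bright, stayed below 0 in all 18 settings, between -0.64 and -0.26, with groups apart in 13. With Cdh1, Epcam, Cldn6 and Cldn7 alone as the reference, Grhl2 differed by -0.26 and Elf3 by -0.28, both with overlapping groups, and Elf5 by -1.43 with groups apart. Against the mean of all listed epithelium markers, Grhl2 differed by -0.62 and Elf5 by -1.80, both with groups apart, and Elf3 by -0.64 with overlapping groups.

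Slides were examined because the 8 arrays lay on 3 of them, each with both genotypes. Within slides 1, 2 and 3 Elf3 differed by -2.07, -2.05 and -3.63, Elf5 by -4.25, -2.38 and -4.81, and Spdef by -1.07, -1.89 and -1.85. Grhl2 differed by -2.13, -1.999 and -3.33, Esrp1 by -1.96, -1.93 and -4.20, and Esrp2 by -1.84, -1.43 and -2.50. All 6 were thus negative on every slide, with slide 3, which holds mutant replicate 2, giving the largest fall for 5 of them. Klf4 (0.42, 0.76 and 1.37) and Klf5 (0.62, 0.27 and 0.42) were positive on each slide, and Grhl1 (0.72, -0.31 and -0.08) changed sign. With slide as a block the 6 differences were -2.63, -3.77, -1.65, -2.52, -2.76 and -1.93 in the order Elf3, Elf5, Spdef, Grhl2, Esrp1 and Esrp2, and all 6 passed (adjusted p 0.0143 to 0.0259, limma).

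By profile over the 8 arrays, some of the fallen regulators lay near one another and others did not. The measure is not scaled, so genes whose signals fell by a like amount lie near one another. Grhl2 was ninth in likeness to Elf3 among all genes, at 0.187 log2 units, and Elf3 was the fourth nearest gene to Esrp1, at 0.279. Spdef and Elf5 were only at places 287 and 443 from Elf3, and Elf5 was at place 7317 from Esrp2. The genes nearest to Elf3 were Kdf1, Hkdc1 and 4732474O15Rik, at 0.151 to 0.155. Kdf1 is known from the differentiation of epidermis, and Hkdc1 encodes a hexokinase. Elf5 lay closer to Myo5c, Mia and Elapor1 (0.336 to 0.377) than to any other regulator, and Spdef to Rapsn, AK141415 and Capsl (0.144 to 0.220). Esrp1 was nearest to Reg1, 2200002J24Rik and Tmprss4 (0.211 to 0.259), of which Reg1 is a secreted product of the pancreas and Tmprss4 a membrane protease of epithelia. Klf4 was nearest to Ctla2a, Mfap4 and Susd2 (0.121 to 0.146), Klf5 to Cachd1, AK041801 and Plppr2 (0.0779 to 0.0884), Grhl1 to Rbms3, Chd6 and C030015A19Rik (0.0970 to 0.100) and Ehf, less closely, to Ggt6, AK033083 and H2-M10.2 (0.479 to 0.542).

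Promoter sequence was at hand for 5 of the 10 genes, in 7 windows of 250 bases upstream of a RefSeq start on GRCm38.p6. The letters ACAAT, the core of sites read by Sox factors, were searched on both strands and occurred in 2 of 7 windows, one each of Elf3 and Elf5, and in 27.7% of 32851 mouse promoter windows of the same length. Neither ACAAAG (16.5% of all windows) nor the Grhl site AACNGGTT (1.79%) occurred in any of the 7. For ACAAT, 2 of 7 windows cannot be told apart from the share over all windows. Spdef, which also fell, held no ACAAT, nor did the other Elf5 window or those of Klf4 and Grhl1. The matching windows are shown to place the match. The capitals mark ACAAT or its reverse complement ATTGT. A match of 5 letters is a description of the sequence and not a binding site.
Elf3, chr1:135258473-135258722, minus strand: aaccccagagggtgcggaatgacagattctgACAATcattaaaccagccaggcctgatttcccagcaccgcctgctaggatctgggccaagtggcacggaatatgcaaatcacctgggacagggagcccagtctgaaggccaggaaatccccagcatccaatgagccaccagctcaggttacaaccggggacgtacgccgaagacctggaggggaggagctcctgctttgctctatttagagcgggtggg
Elf5, chr2:103411848-103412097, plus strand: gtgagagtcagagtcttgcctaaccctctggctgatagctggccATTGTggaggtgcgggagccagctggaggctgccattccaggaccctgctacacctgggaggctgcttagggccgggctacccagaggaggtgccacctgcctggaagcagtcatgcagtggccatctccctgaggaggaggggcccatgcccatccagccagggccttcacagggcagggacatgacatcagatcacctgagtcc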

How the data were processed

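Per the file headers, the scans were read out by the authors in Agilent Feature Extraction 9.5.3.1 (protocol GE1-v5_95_Feb07, probe positions on mm8). Their processed signal is a deposited intensity on a linear scale, background-subtracted within each array. Deposited flags of each spot (control, outlier, well above background) count as other than a measurement. The authors' value table holds intensity values with equal distributions across arrays. The submitters' processing notes name limma, without steps.

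Control spots (1639 of 45018) and spots with outlier flags were left out. Log2 signals minus the array's 75th percentile were averaged per probe. Of 41174 probes, 27389 were well above background on at least 4 of 8 arrays and were kept, 14 of the regulators' 18 among them. A gene's value is that of its brightest kept probe. Genotypes were compared with limma 3.58.1 (R 4.3.3; lmFit and eBayes, two-sided, threshold 0.05 after Benjamini-Hochberg adjustment over 18506 genes). Single values were compared by exact permutation. The procedure was tested on simulated data. "At least" folds set the bright group's mean against the higher of the dim spots and the lowest signal well above background on each array. Having 4 arrays in each group limits the precision.

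Members and lists were chosen with earlier results of these data known, so no list supports its own direction. Named were all 10 regulators, Sox9, from each list of relatives and partners the 4 genes with the smallest adjusted p past the threshold and all genes of lists of 8 or fewer, and 3 nearest profiles for each regulator; some genes that this rule takes are not reported here. Rbfox2, Mbnl1, Ptbp1 and the untested Ets genes were named after their values were seen. Promoters came from RefSeq (GRCm38.p6), and probe sequences from the scanner files.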

Additional observations from a re-analysis of the deposited data

How the results depend on the processing

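Alternatives were the background correction (normexp, offset 50), quantile normalization, other filters on dim probes, the authors' value table, the mean of kept probes, outlier spots kept, slide as a block, the replicate number as a block and leaving out 1 array. After the data had been seen, leaving out the 3 arrays of slide 2, single probes and other epithelial references were added. The count of genes past the threshold, 994, was 419 with no filter on dim probes, 1529 with slide as a random block, 340 with the replicate block, 346 without slide 2, and 395 to 976 with 1 array left out. The replicate numbers did not pair the arrays: same-numbered deviations correlated between -0.354 and 0.0875. With the replicate block 6 regulators were still called. The count of regulators called, 6, was 3 when probes had to be above background on all 8 arrays, where Elf3, Elf5, Esrp1 and Ehf have no value, 5 with no filter, 4 without slide 2, and 4 to 6 with 1 array left out. The 17 comparison genes called became 11 without slide 2 and 14 to 17 with 1 array left out. The count of regulators apart relative to epithelial markers in either direction, 6, ranged from 4 to 7. Of these 6 in the main setting, 3 were lower, against 0.341% of all genes, and 3 higher, against 87%. The sign of each regulator's difference held in every setting except for Grhl1, at -0.019 with normexp and -0.11 to 0.19 with 1 array left out, negative without mutant replicate 3. The cause of these shifts was not tested. Signal over background limits Elf3, Elf5, Ehf and Esrp1, whose mutant values are partly at the floor.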
